A study of Homo sapiens with 12 samples.

Results

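The nuclear receptor superfamily of transcription factors was followed here in H9, an established human embryonic stem cell line, leaving out GCNF (NR6A1) and the NR5A receptors. The members were taken as a list of 43 gene symbols, and each was read by its brightest probe set among those assigned to that symbol alone. In all, 36 of the 43 could be read in this way, among 19775 genes of the array. NR1D1, NR1H2, NR1H4, NR1I2, HNF4A, NR2F2 and NR0B1 had no probe set of their own in the annotation used. RNA was measured on 12 oligonucleotide arrays in 4 groups of 3. All groups, the controls included, carried a Tet-on construct that expresses GCNF when doxycycline (Dox) is given. The d0 group was undifferentiated and untreated, and the group d0 with Dox was undifferentiated and received 1 µg/ml Dox for 4 days. The day 6 groups were kept in differentiation medium with 15% serum for 6 days, one labelled 1 µM retinoic acid (RA) and the other 1 µg/ml Dox. The design asked what GCNF regulates in undifferentiated and in differentiating cells. One line was used, no cells without the construct were analysed here, and the labels do not say whether a clone or a pool was grown.

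Nuclear receptors share a zinc finger DNA-binding domain and a ligand-binding domain, and many bind a hormone, a vitamin derivative or a lipid. Receptors for retinoic acid, thyroid hormone, vitamin D, fatty acids and oxysterols pair with a retinoid X receptor (RXR) on repeats of a half-site, steroid receptors bind as pairs of themselves, and several orphans bind with no known ligand. In embryonic stem cells, retinoic acid is a classical inducer of differentiation, and the gene for its receptor beta, RARB, is known as a direct target of that signal.

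Promoter sequences are shown for NR2F1, RARB and PPARG, 3 of the receptors that were higher in the Dox-labelled than in the RA-labelled day 6 group, so that the half-site pattern can be read beside the measurements. The sequences come from the RefSeq promoter table of build GRCh38.p14, which holds 92 windows for 38 of the 43 members, each running from 250 bases before a transcription start to 50 after it. Printed 5′ to 3′ are the 250 bases before the start, at chr5:93582972-93583221 for NR2F1, chr3:25428013-25428262 for RARB and chr3:12287118-12287367 for PPARG, all on the + strand. Capitals mark half-sites, searched on both strands as AGGTCA or as AGTTCA, and likewise as GGGTCA or as GGTTCA. These 4 spellings, and the choice of the window with the most repeats and half-sites for each gene, were set after the RARB window had been read.
NR2F1: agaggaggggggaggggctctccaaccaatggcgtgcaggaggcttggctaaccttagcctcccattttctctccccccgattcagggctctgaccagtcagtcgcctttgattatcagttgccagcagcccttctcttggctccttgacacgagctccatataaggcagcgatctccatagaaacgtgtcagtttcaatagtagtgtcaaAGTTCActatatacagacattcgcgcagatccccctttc
RARB: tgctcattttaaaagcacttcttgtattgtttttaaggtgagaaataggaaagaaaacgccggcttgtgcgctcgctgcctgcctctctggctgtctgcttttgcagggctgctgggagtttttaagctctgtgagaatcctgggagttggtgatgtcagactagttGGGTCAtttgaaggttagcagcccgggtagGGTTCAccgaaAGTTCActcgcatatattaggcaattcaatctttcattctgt
PPARG: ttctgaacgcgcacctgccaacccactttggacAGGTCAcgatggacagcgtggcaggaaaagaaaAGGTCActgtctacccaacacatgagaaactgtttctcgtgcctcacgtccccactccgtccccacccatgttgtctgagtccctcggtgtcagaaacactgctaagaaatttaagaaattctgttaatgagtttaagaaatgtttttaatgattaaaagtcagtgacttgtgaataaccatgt
The RARB window held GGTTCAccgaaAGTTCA, a direct repeat with 5 letters between its half-sites, at chr3:25428210-25428226, 53 to 37 bases before the start. That arrangement is known to be bound by retinoic acid receptors paired with RXR. In the 4 spellings it occurred in 31 of 35116 promoter windows (0.0883%), which belonged to 29 genes, and RARB was the 1 member among them. The window of CYP26A1, a retinoic acid degrading enzyme, was another of the 31, with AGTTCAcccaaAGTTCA at chr10:93073803-93073819 on the strand opposite to the gene. With the spelling AGGTCA alone, no member window held a direct repeat with 0 to 5 letters between. Single half-sites were common: AGGTCA was in 15 of the 92 member windows (16.3%) against 13.8% of all windows, and any of the 4 spellings in 40 of 92 (43.5%) against 38.6%. A match describes the letters of a window, and it shows neither a bound site nor a cause of a change.

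The deposited values were linear intensities with a median per array of 64.2 to 78.0, and values under 16 made up 23.1% to 26.5% of each array. Replicate arrays correlated at r = 0.980 to 0.982 over all probe sets, and no pair was identical. Replicates are biological per the labels, which do not describe separate cultures, and the p-values cover only the spread between these arrays. The targeted gene checked the labels. The most induced of 7 NR6A1 probe sets stood at 26.8 ± 17.6 (SD, n = 3) at d0 and 615 ± 40.8 in d0 with Dox, but at 336 ± 70.9 in the RA-labelled day 6 group and 29.2 ± 13.7 in the Dox-labelled one. The brightest NR6A1 probe set ran the other way at day 6, with 528 ± 37.8 and 1009 ± 223. CYP26A1, which retinoic acid induces, read 271 ± 37.0 in the RA-labelled group and 29594 ± 1005 in the Dox-labelled one. The most induced NR6A1 probe set and CYP26A1 thus go against the day 6 labels, while the brightest NR6A1 probe set does not. The day 6 arrays are therefore named by label only, and every direction between them rests on those labels.

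Of the 36 receptors, 23 passed the test in at least 1 of the 4 comparisons (63.9%), near the 62.1% of all genes that did. Passing means an adjusted p under 0.05 in limma, fitted to log2(intensity + 16) of all genes on all 12 arrays, and only then is a gene said to have risen or fallen. RARB was the 1 receptor that passed in all 4. With Dox in undifferentiated cells 3 of 36 receptors passed (8.33%), where 12.9% of all genes did (7.75% rose and 5.16% fell). RARB and ESRRG rose and NR3C1 fell. Between the day 6 groups 12 of 36 passed, where 25.9% of all genes did. There 8 were higher in the Dox-labelled arrays, led by NR2F1 and RARB, and 4 were lower, where 13.7% and 12.2% of all genes were.

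From d0 to the RA-labelled day 6 arrays 19 of 36 passed, where 50.5% of all genes did, with 14 rises, among them VDR, PPARG and NR3C2, and 5 falls, among them THRB. From d0 with Dox to the Dox-labelled day 6 arrays 15 of 36 passed, where 46.1% of all genes did, with 10 rises, among them PPARG, RARB, NR2F1 and VDR, and 5 falls, among them THRB. In both changes to day 6 more receptors rose than fell. Over all genes, 25.3% rose and 25.2% fell in the first, and 22.2% rose and 23.9% fell in the second. That balance over all genes depended on scaling: 4392 genes rose and 4728 fell in the second change, against 5407 and 3606 after median centring, which moved the median of all genes by 0.14 on the log2 scale. The arrays of the groups compared did not overlap for 11 of the 36 receptors with Dox at d0, 16 between the day 6 groups, 19 in the first change to day 6 and 21 in the second. Over all genes the shares without overlap were 31.5%, 41.6%, 56.3% and 55.7%. The median log2 fold change of the receptors was 0.06 in the first change and -0.05 in the second, beside -0.01 and -0.03 over all genes. Since whole cultures were measured, fewer cells of a type and less RNA per cell cannot be told apart.

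**Figure D1:**
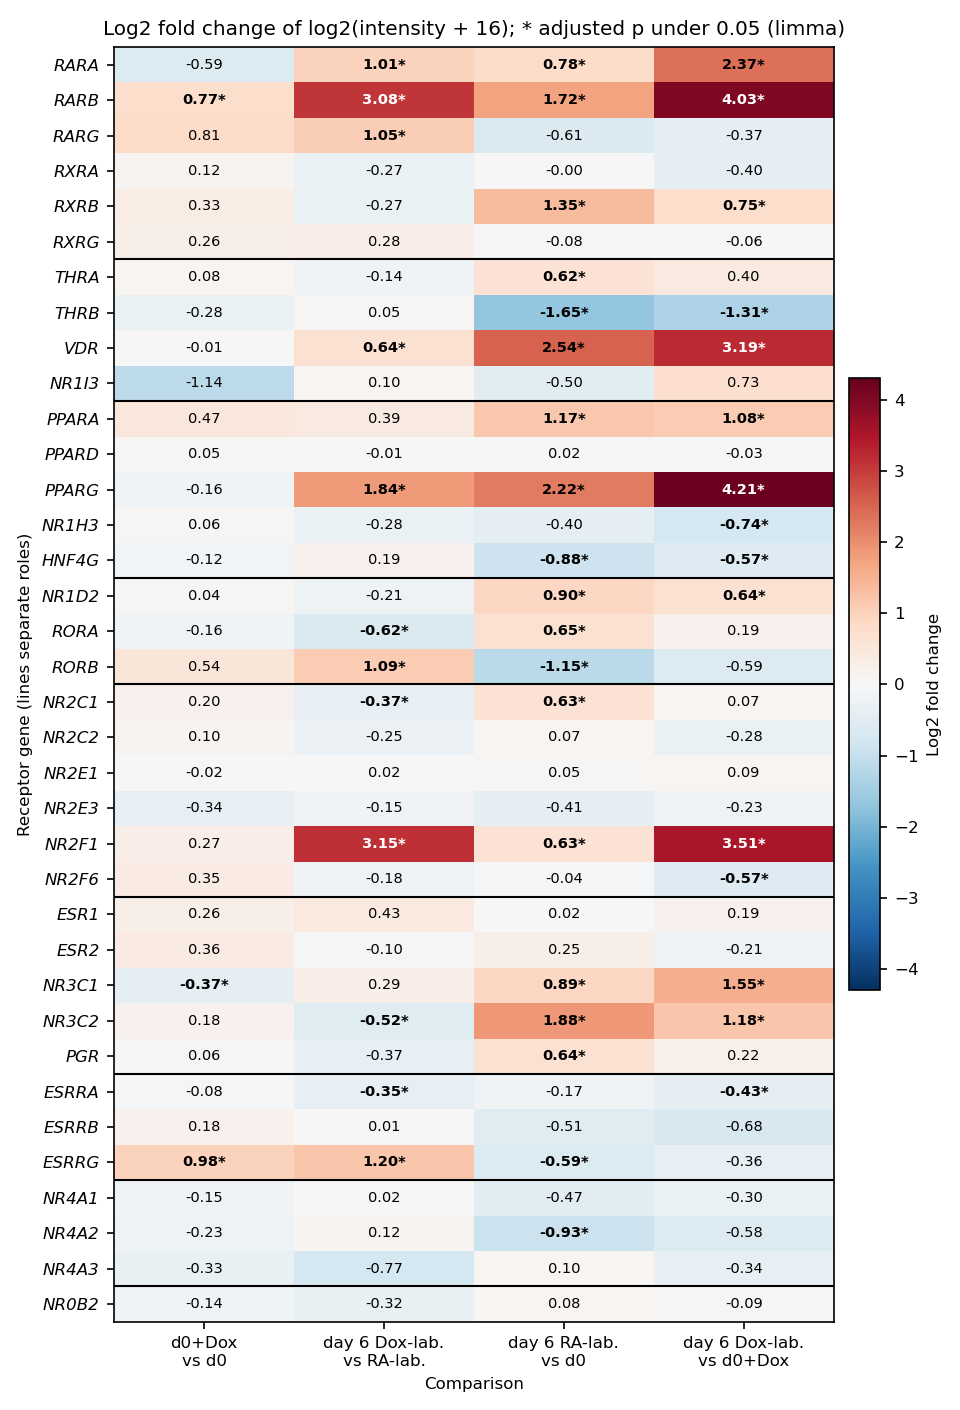
Log2 fold change, on the log2(intensity + 16) scale, of the 36 measured receptors (rows, ordered by role) in the 4 comparisons (columns), with an asterisk where limma's adjusted p was under 0.05. The left column has 3 asterisks, the second 12, the third 19 and the fourth 15, and the darkest cells are PPARG (4.21) and RARB (4.03) in the fourth.

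The retinoic acid receptors RARA, RARB and RARG, which are activated by retinoic acid, all read higher in the Dox-labelled than in the RA-labelled day 6 group. RARB read 73.8, 34.2 and 64.7 on the 3 d0 arrays, 92.5, 108 and 118 in d0 with Dox, 233, 189 and 239 in the RA-labelled arrays, and 1989, 1967 and 1957 in the Dox-labelled arrays. The 4 groups formed 4 separate steps in that order, and no array of one overlapped another. RARB rose with Dox at d0 (log2 fold change 0.77 ± 0.19 SE, adjusted p = 0.0274), to the RA-labelled arrays (1.72 ± 0.19, adjusted p = 2.78e-05) and to the Dox-labelled arrays (4.03 ± 0.19, adjusted p = 8.39e-08). Between the day 6 groups it was 8.45-fold higher in the Dox-labelled arrays (adjusted p = 2.76e-06). A second RARB probe set differed in the same way between the day 6 groups, from 77.2 ± 5.90 to 453 ± 46.8, and 3 dimmer ones did not pass there. The rise at d0 was the weakest of these calls: without d0 with Dox replicate 2 or replicate 3 its adjusted p was 0.076 to 0.0926, and over the mean of all 5 probe sets its log2 fold change was 0.07 (adjusted p = 0.841). Over that mean the day 6 difference was 1.14 and still passed.

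RARA, the receptor alpha, stood at 202, 145 and 188 at d0 and at 144, 84.7 and 114 in d0 with Dox. Its day 6 values were 268, 382 and 303 in the RA-labelled and 675, 633 and 636 in the Dox-labelled arrays. Every day 6 array was above every undifferentiated one, and the Dox-labelled arrays were the highest. RARA rose by 0.78 ± 0.18 on the log2 scale to the RA-labelled arrays (adjusted p = 0.00485) and by 2.37 ± 0.18 to the Dox-labelled arrays (adjusted p = 2.47e-06), and was 2.01-fold higher in the latter than in the former (adjusted p = 0.00272). Over the mean of its 5 probe sets the first of these rises was 0.07 (adjusted p = 0.674) and the second 0.97.

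RARG, the receptor gamma, was dim, and its pattern was different. It read 29.6, 58.1 and 31.0 at d0, 92.4, 78.7 and 67.8 in d0 with Dox, 15.7, 24.2 and 19.1 in the RA-labelled arrays and 109, 25.5 and 60.2 in the Dox-labelled arrays. The d0 with Dox arrays lay above the d0 arrays, but that difference did not pass (0.81). The Dox-labelled arrays were spread widely and lay above the RA-labelled ones, the lowest of them by little. Their difference passed narrowly (1.05 ± 0.35, adjusted p = 0.0497), and without any 1 of 10 arrays, all but d0 replicate 2 and Dox-labelled replicate 2, the adjusted p was 0.062 to 0.147. With the 6 arrays alone (adjusted p = 0.127), a replicate block (0.0814) or the mean of its probe sets (0.141) it did not pass either.

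Of the retinoid X receptors, the common partners, RXRB rose at day 6 in both series. RXRB read 443, 378 and 557 at d0, 584, 568 and 566 in d0 with Dox, 1144, 1078 and 1324 in the RA-labelled arrays, and 834, 1068 and 1034 in the Dox-labelled arrays. Both day 6 groups were above both undifferentiated groups with no overlap. It rose by 1.35 ± 0.14 to the RA-labelled arrays (adjusted p = 2e-05) and by 0.75 ± 0.14 to the Dox-labelled arrays (adjusted p = 0.0016), and neither rise passed over the mean of its 3 probe sets (adjusted p = 0.0533 and 0.124). RXRA lay between 420 and 887 on the 12 arrays and RXRG between 2.58 and 48.2, and neither passed in any comparison.

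**Figure D2:**
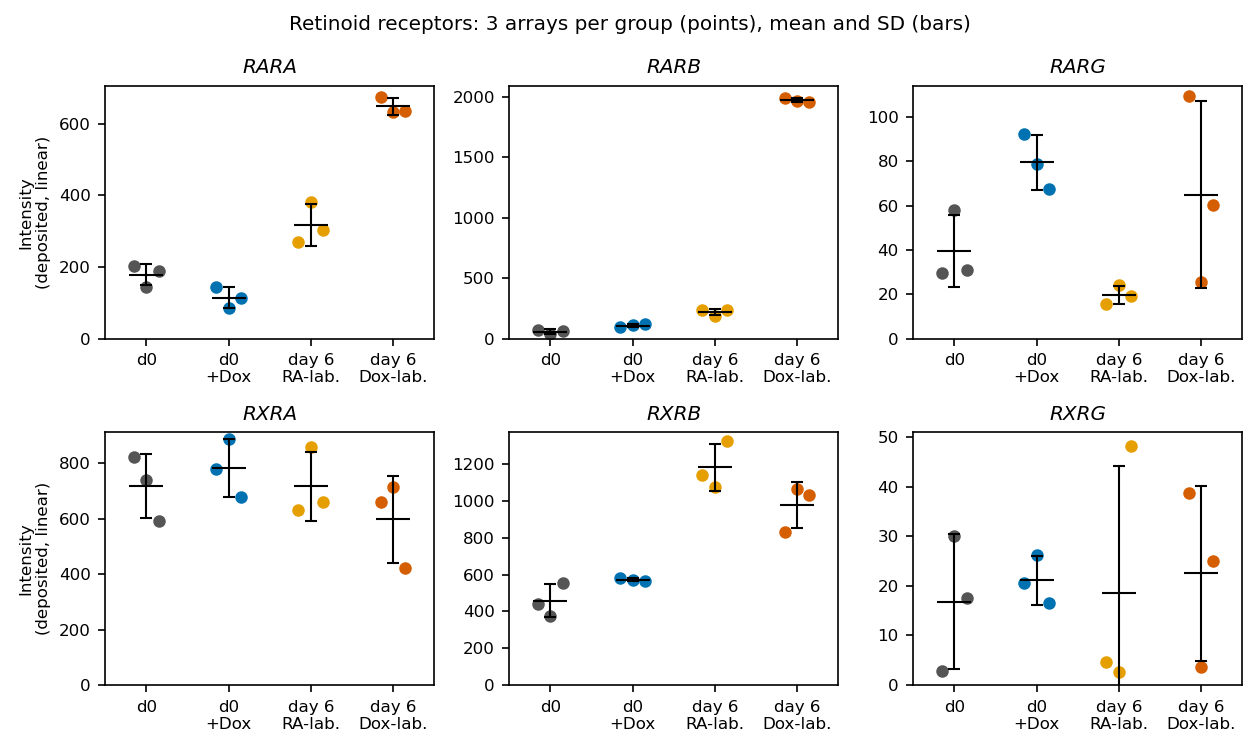
Deposited intensity (linear axes) of the 6 retinoid receptors on each array (points), with the mean and SD of 3 arrays per group (bars). RARB stands near 1971 in the Dox-labelled day 6 arrays and at 239 or below on every other array, while RXRA overlaps across all 4 groups.

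Genes that retinoic acid receptors induce were measured beside the receptors, from a list of 12 of which 9 could be read. All 9 were higher in the Dox-labelled than in the RA-labelled day 6 arrays (median log2 fold change 3.10, against 0.00 over all genes), and all 9 rose from d0 with Dox to the Dox-labelled arrays (median 2.49). From d0 to the RA-labelled arrays 4 rose and 2 fell, where 25.3% of all genes rose and 25.2% fell. From d0 with Dox to the Dox-labelled arrays 22.2% of all genes rose. Between the day 6 groups 13.7% of all genes were higher in the Dox-labelled arrays. CYP26B1, which like CYP26A1 breaks down retinoic acid, read 46.6 ± 11.9 in the RA-labelled group and 5075 ± 346 in the Dox-labelled one (log2 fold change 6.36, adjusted p = 8.65e-08). CYP26A1 itself fell from 4494 ± 252 at d0 to 271 ± 37.0 in the RA-labelled arrays (-3.98, adjusted p = 1.01e-09). CRABP2, which carries retinoic acid in the cell, was one of the 4 that rose there, from 442 ± 41.8 to 1991 ± 253 (2.13, adjusted p = 5.92e-08). With Dox at d0, 4 of the 9 rose and 2 fell, where 7.75% of all genes rose and 5.16% fell. The largest rises were CRABP2 at 1.24 (adjusted p = 5.09e-05) and the retinal reductase DHRS3 at 1.04 (adjusted p = 2.98e-05). RARRES2, which encodes the secreted protein chemerin, fell from 1165 ± 162 to 576 ± 59.4 (-0.99, adjusted p = 0.000657).

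The vitamin D receptor VDR, which binds calcitriol, was near the dim end of the scale before differentiation and rose in both labelled series. Its values were 58.7, 29.7 and 60.1 at d0, 57.8, 48.0 and 37.6 in d0 with Dox, 339, 340.4 and 390.4 in the RA-labelled arrays and 483, 561 and 656 in the Dox-labelled arrays. The undifferentiated groups overlapped each other and were far below both day 6 groups. The rises were 5.83-fold (log2 2.54 ± 0.20, adjusted p = 2.2e-06) and 9.15-fold (log2 3.19 ± 0.20, adjusted p = 6.24e-07), and a second VDR probe set rose in both. Over the mean of its 4 probe sets the rises were 1.33 and 2.13. VDR was 1.56-fold higher in the Dox-labelled than in the RA-labelled arrays (adjusted p = 0.0439), a difference that did not pass without d0 with Dox replicate 2, any RA-labelled array, or Dox-labelled replicate 2 or 3 (adjusted p = 0.0613 to 0.136). It also did not pass with quantile normalization (0.0592), a replicate block (0.0593), the mean of the probe sets (0.0941) or a pseudocount of 1 (0.108).

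Thyroid hormone receptor beta, THRB, fell at day 6 in both series. It read 348, 274 and 304 at d0, 240.1, 238 and 271 in d0 with Dox, 108, 97.1 and 62.0 in the RA-labelled arrays and 89.6, 59.0 and 138 in the Dox-labelled arrays. The day 6 groups overlapped each other and were well below the undifferentiated ones. THRB fell by 1.65 on the log2 scale to the RA-labelled arrays (SE 0.25, adjusted p = 0.000239) and by 1.31 to the Dox-labelled arrays (SE 0.25, adjusted p = 0.00138), and a second of its 3 probe sets fell in both. Over the mean of its probe sets the second fall was -0.65 and still passed. Its relative THRA, the receptor alpha, read 115, 154 and 179 at d0 and 272, 219 and 216 in the RA-labelled arrays, a rise of 0.62 ± 0.17 (adjusted p = 0.0104) that did not pass over the mean of its probe sets (0.17, adjusted p = 0.417). In the Dox-labelled arrays THRA read 243, 171 and 227 against 154, 149 and 167 in d0 with Dox, and did not pass (0.40). Its 3 other probe sets also had higher means in the Dox-labelled arrays than in d0 with Dox. They went from 87.9 ± 10.4 to 196 ± 32.4, from 16.6 ± 8.71 to 58.7 ± 15.1 and from 26.6 ± 11.1 to 29.3 ± 14.5. NR1I3, the xenobiotic sensor CAR, lay between 4.24 and 57.2 and passed nowhere, its smallest adjusted p being 0.0979.

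Of 8 target genes of the thyroid hormone and vitamin D receptors none passed in limma with Dox at d0, also at an unadjusted p under 0.05. Between the day 6 groups 3 were higher in the Dox-labelled arrays and none lower, where 13.7% of all genes were higher and 12.2% lower. CYP24A1, the enzyme that inactivates vitamin D and is induced by VDR, read 27.3 ± 7.47 at d0, 24.5 ± 13.7 in d0 with Dox, 13.8 ± 9.08 in the RA-labelled arrays and 869.6 ± 98.6 in the Dox-labelled arrays. It thus stayed dim in the RA-labelled arrays, where VDR had risen, and its difference between the day 6 groups was 4.93 on the log2 scale (adjusted p = 1.58e-06). The calcium channel TRPV6 likewise read 31.3 ± 18.4 and 251 ± 25.5 (2.57, adjusted p = 0.00268). From d0 to the RA-labelled arrays 2 rose and 1 fell, where 25.3% of all genes rose and 25.2% fell. KLF9, a thyroid hormone and glucocorticoid responsive factor, rose from 56.8 ± 7.13 to 279 ± 42.99 there (2.01, adjusted p = 9.08e-06). DIO3, which inactivates thyroid hormone, fell from 85.8 ± 31.2 to 21.5 ± 16.4 (-1.49, adjusted p = 0.00619). In the change from d0 with Dox to the Dox-labelled arrays 4 rose and 1 fell, where 22.2% of all genes rose and 23.9% fell.

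**Figure D3:**
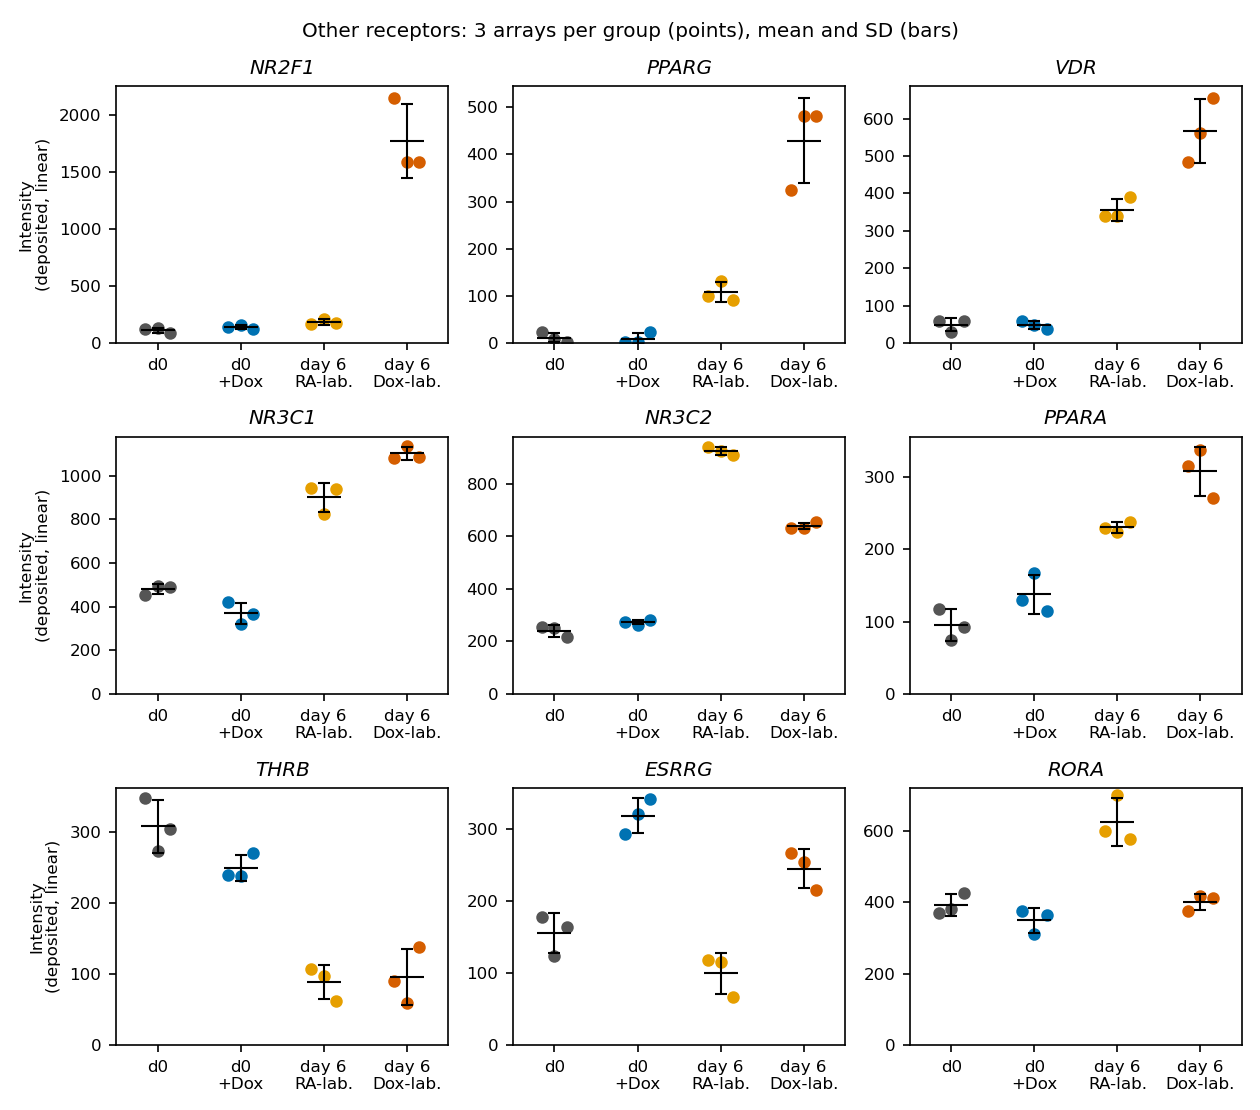
Deposited intensity (linear axes) of 9 other receptors on each array (points), with the mean and SD of 3 arrays per group (bars). NR2F1 is at 1585 or above in the Dox-labelled day 6 arrays and at 215 or below elsewhere, VDR and PPARG are low at d0 and highest in the Dox-labelled arrays, and THRB is lowest in both day 6 groups.

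Among the sensors of fatty acids and sterols, PPARG, the adipogenic receptor, rose from the signal floor. It read 22.6, 9.41 and 2.61 at d0, 2.11, 2.41 and 23.4 in d0 with Dox, 100.2, 132 and 91.9 in the RA-labelled arrays, and 325, 481 and 481 in the Dox-labelled arrays. The undifferentiated groups overlapped, and the day 6 groups did not overlap them or each other. On the log2(intensity + 16) scale PPARG rose by 2.22 ± 0.34 to the RA-labelled arrays (adjusted p = 0.000295) and by 4.21 ± 0.34 to the Dox-labelled arrays (adjusted p = 3.59e-06). Because most undifferentiated arrays lay under 16, these sizes depend on the pseudocount: the second rise was 6.05 with a pseudocount of 1 and 2.74 with 64. Between the day 6 groups it was 3.57-fold higher in the Dox-labelled arrays (adjusted p = 0.00312), which did not pass with a pseudocount of 1 (adjusted p = 0.127). PPARG had no other probe set.

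PPARA, the regulator of fatty acid oxidation, read 118, 74.6 and 92.9 at d0, 131, 168 and 115 in d0 with Dox, 229.5, 224 and 238 in the RA-labelled arrays, and 316, 337 and 271 in the Dox-labelled arrays. Both day 6 groups stood above all undifferentiated arrays. The rises were 1.17 ± 0.16 (adjusted p = 0.000123) and 1.08 ± 0.16 (adjusted p = 0.000257), with 3 and 5 of its 8 other probe sets also called higher. Over the mean of the 9 probe sets the first rise was 0.49. PPARD, the third of these receptors, kept to 898 to 1081 on all arrays and passed in no comparison.

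NR1H3, the oxysterol receptor LXR alpha, read 226, 186 and 249.7 in d0 with Dox and 133, 122 and 120.2 in the Dox-labelled arrays, with no overlap. It fell by 0.74 on the log2 scale there (SE 0.16, adjusted p = 0.00389). From 212, 165 and 263 at d0 to 160.1, 175 and 132 in the RA-labelled arrays the groups overlapped and the difference did not pass (-0.40). HNF4G, a relative of the liver factor HNF4A, read 80.2, 73.1 and 53.0 at d0, 62.4, 72.3 and 50.7 in d0 with Dox, 25.6, 39.9 and 25.1 in the RA-labelled arrays and 50.1, 37.4 and 24.0 in the Dox-labelled arrays. Its lower day 6 values gave a fall of 0.88 on the log2 scale to the RA-labelled arrays (SE 0.21, adjusted p = 0.00501). The fall to the Dox-labelled arrays was -0.57 (adjusted p = 0.0475), and the adjusted p was 0.0534 to 0.17 without d0 replicate 1 or 2, d0 with Dox replicate 1 or 2, RA-labelled replicate 1 or 3, or Dox-labelled replicate 2 or 3. Under 6 other settings its adjusted p was between 0.0588, with a pseudocount of 1, and 0.208, over the mean of its probe sets.

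Target genes of these sensors moved in both directions. None of 8 measured PPAR targets passed in limma with Dox at d0, and 1 had an unadjusted p under 0.05. From d0 to the RA-labelled arrays 3 rose and 3 fell, and from d0 with Dox to the Dox-labelled arrays 3 rose and 2 fell. Of all genes, 25.3% rose and 25.2% fell in the first of these changes, and 22.2% rose and 23.9% fell in the second. ANGPTL4, a secreted inhibitor of lipoprotein lipase, went from 347 ± 20.9 to 2199 ± 237 in the RA-labelled arrays (2.60, adjusted p = 3.3e-07). CPT1A, which brings fatty acids into mitochondria, went from 728 ± 58.0 to 26.3 ± 25.1 (-4.29, adjusted p = 9.81e-06). Of 8 LXR targets, 2 rose with Dox at d0, where 7.75% of all genes did. ABCA1, the cholesterol exporter, stood at 266 ± 26.1 at d0, 664 ± 58.5 in d0 with Dox (1.27, adjusted p = 3.19e-05) and 4575 ± 24.0 in the RA-labelled arrays (4.03, adjusted p = 1.01e-09). SCD, the stearoyl-CoA desaturase, fell from 19625 ± 1771 to 7011 ± 225 (-1.48, adjusted p = 8.15e-08). Of 10 targets of HNF4A, FXR and PXR none passed in limma with Dox at d0 or between the day 6 groups, with 2 at an unadjusted p under 0.05 in each. Of all genes, 12.9% and 25.9% passed in these comparisons. TTR, the carrier of thyroxine and retinol, rose from 44.3 ± 16.01 at d0 to 645 ± 389 in the RA-labelled arrays (3.27, adjusted p = 0.000109).

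Of the clock receptors, NR1D2 (REV-ERB beta), a repressor of the circadian oscillator, rose in both series. It read 1329, 1578 and 1187 at d0, 1421, 1301 and 1477 in d0 with Dox, 2259, 2925 and 2475 in the RA-labelled arrays and 2065, 2178 and 2346 in the Dox-labelled arrays. Every day 6 array was above every undifferentiated one. The rises were 0.90 ± 0.12 (adjusted p = 0.000136) and 0.64 ± 0.12 (adjusted p = 0.00162), with its other probe set called higher in both. RORA, an activator at the same elements, read 370.3, 379 and 427 at d0, 375, 309.6 and 363 in d0 with Dox, 598, 699.6 and 575 in the RA-labelled arrays and 374, 416 and 412 in the Dox-labelled arrays. The RA-labelled group stood alone above the other 3. RORA rose by 0.65 ± 0.10 from d0 to that group (adjusted p = 0.000368) and was -0.62 ± 0.10 in the Dox-labelled relative to the RA-labelled arrays (adjusted p = 0.00162), with 2 other probe sets called in each. Over the mean of its 8 probe sets the day 6 difference was -0.32 (adjusted p = 0.118).

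RORB, a relative with neural expression, ran opposite to RORA. It read 47.7, 57.6 and 19.6 at d0, 71.96, 46.6 and 76.5 in d0 with Dox, 7.09, 22.5 and 1.34 in the RA-labelled arrays, and 32.0, 35.7 and 44.0 in the Dox-labelled arrays. The RA-labelled arrays were the lowest, though 1 of them overlapped d0. Its fall from d0 was -1.15 ± 0.33 (adjusted p = 0.0139) and its difference between the day 6 groups 1.09 ± 0.33 (adjusted p = 0.0342). The fall had an adjusted p of 0.0557 to 0.0564 without d0 replicate 2 or RA-labelled replicate 3, and 0.0551 with the 6 arrays alone. The difference had 0.0647 to 0.118 without RA-labelled replicate 1 or 3 or any Dox-labelled array, 0.0504 with a replicate block and 0.151 over the mean of its probe sets. Both sizes depend on the pseudocount, with -2.35 and 2.31 at a pseudocount of 1. Of 6 targets of these receptors, none passed in limma with Dox at d0, and 2 had an unadjusted p under 0.05. From d0 to the RA-labelled arrays 1 rose and 2 fell, and from d0 with Dox to the Dox-labelled arrays 2 rose and 2 fell. Of all genes, 25.3% rose and 25.2% fell in the first of these changes, and 22.2% rose and 23.9% fell in the second. BMAL1, a core clock activator repressed by REV-ERB proteins, rose from 161 ± 23.4 to 572 ± 105 in the RA-labelled arrays (1.73, adjusted p = 3.27e-06) and from 198 ± 22.3 to 457 ± 28.9 in the Dox-labelled arrays (1.15, adjusted p = 8.88e-05).

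NR2F1, the orphan COUP-TFI of neural and crest development, had with RARB one of the 2 differences above 3 on the log2 scale between the day 6 groups. It read 120.5, 132 and 89.5 at d0, 138, 159 and 123 in d0 with Dox, 165, 215 and 175 in the RA-labelled arrays and 2153, 1585 and 1587 in the Dox-labelled arrays. The undifferentiated groups overlapped, the RA-labelled arrays lay just above them, and the Dox-labelled arrays were far above all others. NR2F1 was 8.87-fold higher in the Dox-labelled than in the RA-labelled arrays (log2 3.15 ± 0.17, adjusted p = 9.79e-07). Its rises were 0.63 ± 0.17 (adjusted p = 0.00955) and 3.51 ± 0.17 (adjusted p = 8.72e-08), and it had no other probe set. NR2F6, the related EAR2, read 2899, 3194 and 2495 in d0 with Dox and 1903, 2132 and 1739 in the Dox-labelled arrays. That fall was -0.57 ± 0.17 (adjusted p = 0.0217), and its adjusted p was 0.0547 to 0.0775 without d0 with Dox replicate 1 or 2 or Dox-labelled replicate 1 or 3, 0.0893 with median centring and 0.504 over the mean of its probe sets. From 1892, 1971 and 2976 at d0 to 2429.7, 2066 and 2042 in the RA-labelled arrays NR2F6 did not pass (-0.04).

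NR2C1, the testicular receptor TR2, gave opposite directions by probe set. The brightest read 2384, 2383 and 2252 at d0 and 3376, 3721 and 3836 in the RA-labelled arrays, a rise of 0.63 ± 0.07 (adjusted p = 3.15e-05). Of the 3 others, 2 were called lower in the same comparison, from 552 ± 44.5 to 359 ± 8.90 and from 329 ± 58.3 to 211 ± 5.41, and the mean of all 4 gave -0.08 (adjusted p = 0.553). The direction of NR2C1 from d0 thus depended on the probe set. Between the day 6 groups the brightest read 2847, 2707 and 2899.96 in the Dox-labelled arrays, lower by -0.37 ± 0.07 than in the RA-labelled ones (adjusted p = 0.00416), and all 3 others had the same sign. NR2C2, the receptor TR4, lay between 1440.04 and 2189.99 and NR2E3, the photoreceptor receptor, between 11.9 and 53.1. NR2E1, the neural stem cell receptor TLX, lay between 1.77 and 6.18, under 16 on every array. None of these 3 passed in any comparison.

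Of the 5 steroid receptors, the glucocorticoid receptor NR3C1 and the mineralocorticoid receptor NR3C2 rose in both series. NR3C1 read 453, 495 and 490.4 at d0, 420.4, 322 and 364 in d0 with Dox, 942, 824 and 937 in the RA-labelled arrays and 1083, 1136 and 1087 in the Dox-labelled arrays. The 4 groups did not overlap. It rose by 0.89 ± 0.10 to the RA-labelled (adjusted p = 2.58e-05) and by 1.55 ± 0.10 to the Dox-labelled arrays (adjusted p = 6.11e-07), with 4 and 3 of its 4 other probe sets also called. The fall with Dox at d0 was -0.37 ± 0.10 (adjusted p = 0.035), with all 4 others of the same sign and none called. That fall did not pass without any d0 array, d0 with Dox replicate 2 or 3, or any Dox-labelled array (adjusted p = 0.0511 to 0.108), with a replicate block (0.0567), with the 6 arrays alone (0.126) or over the mean of its probe sets (0.096).

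NR3C2 read 255, 251 and 216 at d0, 276, 265 and 281 in d0 with Dox, 942, 925 and 911 in the RA-labelled arrays and 634, 633 and 654 in the Dox-labelled arrays. Its groups were tight, and those of day 6 were separate, with the RA-labelled arrays the highest. It rose 3.68-fold to the RA-labelled (log2 1.88 ± 0.07, adjusted p = 1.29e-08) and 2.26-fold to the Dox-labelled arrays (log2 1.18 ± 0.07, adjusted p = 4.56e-07), and was -0.52 ± 0.07 in the Dox-labelled against the RA-labelled arrays (adjusted p = 0.000494). PGR, the progesterone receptor, read 11.4, 4.05 and 4.27 at d0 and 15.6, 11.98 and 31.9 in the RA-labelled arrays. Although its rise of 0.64 ± 0.22 passed (adjusted p = 0.0317), most of these arrays lay under 16, and the adjusted p was 0.0949 to 0.111 without d0 replicate 2 or 3 or RA-labelled replicate 3, and 0.0727 with the 6 arrays alone. Its other probe set had the opposite sign. The oestrogen receptors ESR1, between 14.1 and 84.1, and ESR2, between 9.34 and 46.2, passed nowhere.

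Of 7 measured targets of the glucocorticoid receptor, 5 rose to day 6 in the RA-labelled series and 6 in the Dox-labelled one. Of all genes, 25.3% and 22.2% rose in these changes. The median log2 fold change of the targets was 1.87 in each, against -0.01 and -0.03 over all genes. The day 6 groups were in serum medium and the undifferentiated groups in another, mTeSR, so medium and time cannot be told apart. DUSP1, a phosphatase that dampens MAP kinases, went from 763 ± 23.1 at d0 to 4302 ± 245 in the RA-labelled arrays (2.47, adjusted p = 1.87e-09) and from 755 ± 12.3 to 6448 ± 336 in the Dox-labelled arrays (3.07, adjusted p = 7.76e-10). GADD45B, a stress-induced gene, rose from 435 ± 27.8 to 4803 ± 175 in the RA-labelled arrays (3.42, adjusted p = 1.42e-09). FKBP5, a chaperone partner of the receptor, fell in both (-0.61, adjusted p = 1.7e-05, and -1.18, adjusted p = 2.07e-07). With Dox at d0 none rose and 2 fell, where 7.75% of all genes rose and 5.16% fell. The 2 were SGK1, from 1175 ± 34.2 to 680.04 ± 68.9 (-0.78, adjusted p = 0.000196), and GADD45B, to 319 ± 39.9 (-0.43, adjusted p = 0.0117). Of 6 oestrogen receptor targets, 2 fell with Dox at d0, MYC from 2938 ± 324 to 1083 ± 105 (-1.43, adjusted p = 3.19e-05) and XBP1, a factor of the unfolded protein response, by 0.45 on the log2 scale (adjusted p = 0.0102).

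The oestrogen-related receptors are orphans that govern energy metabolism, and ESRRG, the third of them, was with RARB one of the 2 receptors that rose under Dox in undifferentiated cells. It read 178, 124 and 165 at d0, 294, 321 and 343 in d0 with Dox, 118, 115 and 67.2 in the RA-labelled arrays and 267, 255 and 216 in the Dox-labelled arrays. No groups overlapped, and d0 with Dox and the Dox-labelled arrays stood above d0 and the RA-labelled arrays. That pairing rests on the day 6 labels, which the most induced NR6A1 probe set and CYP26A1 go against. ESRRG was 1.97-fold higher with Dox at d0 (log2 0.98 ± 0.19, adjusted p = 0.00839) and 2.30-fold higher in the Dox-labelled than in the RA-labelled arrays (log2 1.20 ± 0.19, adjusted p = 0.00113), and its other probe set had the same sign in both without being called. It fell from d0 to the RA-labelled arrays (-0.59 ± 0.19, adjusted p = 0.0254), but not without d0 replicate 1 or 3 or RA-labelled replicate 3 (adjusted p = 0.073 to 0.0903), with median centring (0.0629) or with the 6 arrays alone (0.0851).

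ESRRA, the receptor alpha, read 571, 504 and 564 in d0 with Dox, 487, 539.7 and 519 in the RA-labelled arrays and 353, 398 and 456 in the Dox-labelled arrays. The Dox-labelled arrays were the lowest. They were -0.43 ± 0.12 against d0 with Dox (adjusted p = 0.0109) and -0.35 ± 0.12 against the RA-labelled arrays (adjusted p = 0.049957). Its other probe set had the opposite sign in both, and the mean of the pair gave -0.04 (adjusted p = 0.89) and 0.06 (adjusted p = 0.875). The second difference also had an adjusted p of 0.0585 to 0.17 without d0 replicate 1 or any d0 with Dox, RA-labelled or Dox-labelled array other than Dox-labelled replicate 3, 0.0521 with a replicate block and 0.0878 with median centring. Median centring also ended the first (0.0829). ESRRB, known from naive pluripotent cells, lay between 12.2 and 78.8 and did not pass.

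Of the NR4A receptors, which are early response genes, NR4A2 read 66.3, 72.7 and 75.2 at d0 and 35.4, 32.5 and 22.6 in the RA-labelled arrays. It fell by 0.93 on the log2 scale (SE 0.22, adjusted p = 0.00516), but both its other probe sets had the opposite sign, and the mean of the 3 gave -0.27 (adjusted p = 0.237). In the Dox-labelled arrays it read 39.5, 36.7 and 26.3 against 50.8, 40.6 and 93.7 in d0 with Dox and did not pass (-0.58). NR4A1, between 36.0 and 129, and NR4A3, between 2.36 and 40.9, passed nowhere. NR0B2, a corepressor that lacks a DNA-binding domain, lay between 5.17 and 35.7 and did not pass either.

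The 2 changes to day 6 share no array, and their calls are set side by side here. The calls are not independent, since each test used a spread estimated on all 12 arrays. With the labels as given, 10 of the 36 receptors rose in both, PPARG, RARB, NR2F1, VDR, RARA, NR3C1, NR3C2, PPARA, RXRB and NR1D2. THRB and HNF4G fell in both, and 0 went opposite ways. These 12 were 63.2% of the receptors called in the RA-labelled series and 80% of those called in the Dox-labelled series. Over all genes the shares were 67.6% and 74.1%. The size of the change differed between the series for 8 receptors, where 24.2% of all genes differed (11.7% with a larger value in the Dox-labelled series and 12.5% with a smaller one). It was larger in the Dox-labelled series for NR2F1 (by 2.88 ± 0.24 on the log2 scale, adjusted p = 2.85e-05), RARB (2.31 ± 0.27, adjusted p = 0.000246), PPARG (1.99 ± 0.49, adjusted p = 0.0139), RARA (1.60 ± 0.26, adjusted p = 0.0016) and NR3C1 (0.66 ± 0.14, adjusted p = 0.0068). The differences were negative for NR3C2 (-0.70 ± 0.10, adjusted p = 0.000847), NR2C1 (-0.57 ± 0.10, adjusted p = 0.00291) and RORA (-0.45 ± 0.15, adjusted p = 0.048).

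The RORA difference did not pass without any 1 of 9 arrays, d0 replicate 1 or 2, d0 with Dox replicate 1 or 3, RA-labelled replicate 1 or 2, or any Dox-labelled array (adjusted p = 0.0642 to 0.109). PPARG's did not pass with a pseudocount of 1 (adjusted p = 0.167), and NR3C1's did not over the mean of its probe sets (adjusted p = 0.126). Since the same 4 group means enter, each such difference is also the day 6 difference less the one seen with Dox at d0. For RARA, which read lower with Dox at d0 without passing (-0.59), it was therefore larger than the 1.01 between the day 6 groups.

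The most induced NR6A1 probe set and CYP26A1 go against the day 6 labels. These labels decide which undifferentiated group each day 6 group is set against. The changes were therefore also computed with the labels exchanged, a setting chosen after seeing the data. The Dox-labelled arrays against d0 then gave 18 called receptors, where 48.5% of all genes passed, and the RA-labelled arrays against d0 with Dox gave 19, where 48.3% did. ESRRG then went opposite ways, 0.62 (adjusted p = 0.0211) in the first and -1.56 (adjusted p = 5.64e-05) in the second. NR2F1 no longer rose in the second (0.37, adjusted p = 0.106). THRA and NR2C1 now rose in both, and NR1H3 and NR4A2 now fell in both. The difference between these changes, again Dox-labelled less RA-labelled, passed for 9 receptors, where 18.1% of all genes did, and 5 of the 9 were among the 8 above. These 5 were NR2F1 (3.42), RARB (3.85), PPARG (1.68, adjusted p = 0.0388), NR3C2 (-0.34, adjusted p = 0.0427) and RORA (-0.78, adjusted p = 0.00463). RARA (0.42, adjusted p = 0.328), NR2C1 (-0.17, adjusted p = 0.308) and NR3C1 (-0.083, adjusted p = 0.751) did not pass, and NR3C1 changed sign. ESRRG (2.18, adjusted p = 0.000351), RARG (1.86), RORB (1.63) and PPARA (0.86) passed instead. Which receptors changed by different amounts thus rests in part on the day 6 labels.

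**Figure D4:**
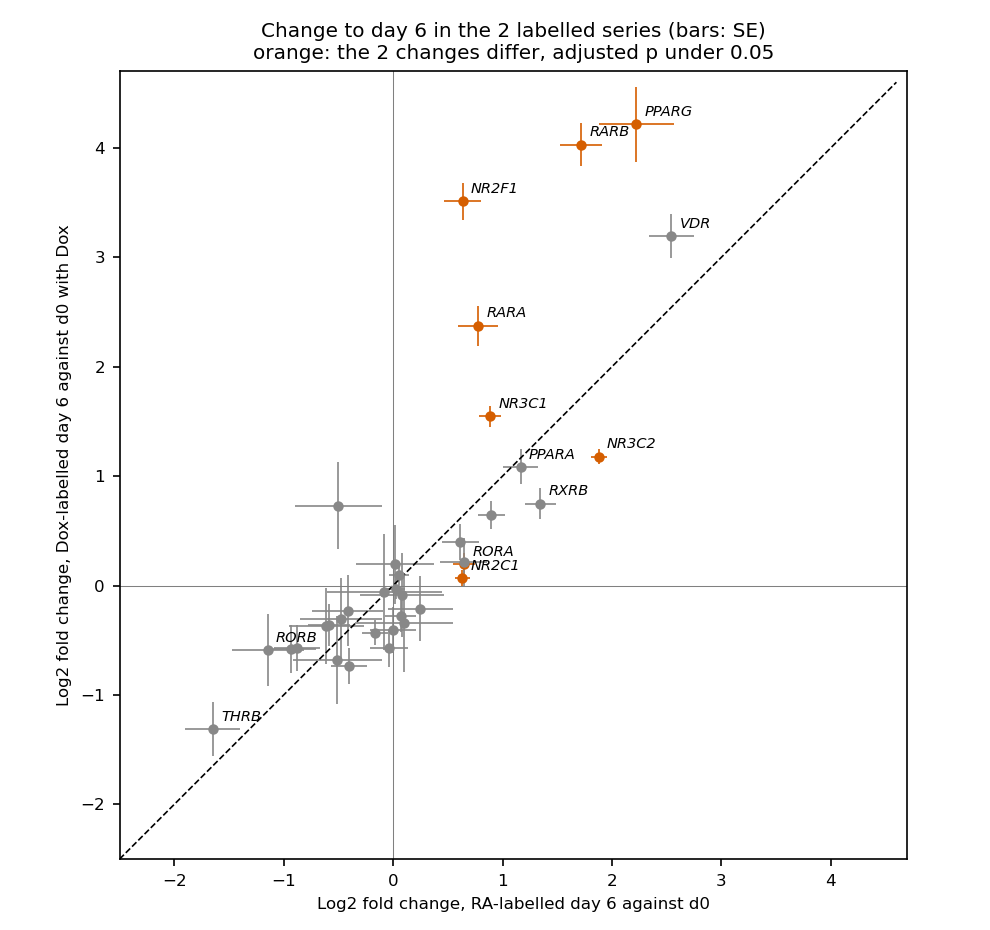
Log2 fold change of each receptor from d0 to the RA-labelled day 6 arrays (horizontal) against that from d0 with Dox to the Dox-labelled day 6 arrays (vertical), with SE bars and a dashed line of equal change. The 8 receptors whose changes differed are in orange, with NR2F1, RARB, PPARG, RARA and NR3C1 above the line and NR3C2, NR2C1 and RORA below it.

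Coregulators, the proteins through which receptors act on chromatin, changed in both directions. Of all genes, 7.75% rose and 5.16% fell with Dox at d0, and 25.3% rose and 25.2% fell from d0 to the RA-labelled arrays. Between the day 6 groups 13.7% were higher in the Dox-labelled arrays and 12.2% lower. With Dox at d0, 2 of 15 measured coactivators rose, KAT2B from 108 ± 5.87 to 258 ± 58.6 (1.13, adjusted p = 0.00168) and NCOA6 from 468 ± 37.5 to 809 ± 24.7 (0.77, adjusted p = 0.000322), and none fell. Between the day 6 groups the Dox-labelled arrays were higher for 3 of them and lower for 5. PPARGC1B, a coactivator of the oestrogen-related receptors, fell from 587 ± 25.8 at d0 to 137 ± 11.6 in the RA-labelled arrays (-1.98, adjusted p = 3e-07), where 6 rose and 6 fell. Of 9 corepressors, 2 rose with Dox at d0, NRIP1 from 943 ± 63.2 to 1657 ± 15.3 (0.81, adjusted p = 0.00334) and LCOR from 662 ± 54.0 to 1089 ± 29.6 (0.71, adjusted p = 0.000282). NRIP1, which retinoic acid and oestrogen induce, stood at 2603 ± 511 in the RA-labelled group and 8089 ± 503 in the Dox-labelled one (1.65, adjusted p = 1.3e-05). BCL11A, a zinc finger partner of COUP-TF proteins, fell from 3072 ± 348 at d0 to 555 ± 84.0 in the RA-labelled arrays (-2.44, adjusted p = 1.81e-07).

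Markers of cell types also differed between the groups. The summed intensity of 6 measured pluripotency markers was 74743 to 81199 at d0, 71127 to 73829 in d0 with Dox, 16456 to 18865 in the RA-labelled group and 15622 to 16354 in the Dox-labelled one, and in the Dox-labelled arrays PRDM14 had a mean under 16. Sums over 8 endoderm and liver markers were 696 to 870, 907 to 1051, 2759 to 5754 and 9928 to 12155 in the same order. Those of 8 neural crest markers were 5956 to 6512, 3459 to 4039, 6946 to 7672 and 9734 to 9842. The 7 trophoblast and amnion markers summed to 3652 to 4335, 3139 to 3508, 6586 to 7985 and 36584 to 38314, with CGA and GCM1 under 16 in every group. Sums over 8 mesoderm and heart markers were 441 to 514, 375 to 390, 418 to 711 and 1001 to 1197 in the same order, with HAND2 under 16 in every group. Neural markers, 7 measured, summed to 10494 to 11746, 9293 to 9645.5, 8357 to 8738 and 8361 to 9050. The 7 endothelium and blood markers summed to 2542 to 2559, 2213 to 2752, 1306 to 1416 and 1338 to 1480. Sums of these last 2 lists overlapped between the day 6 groups. A sum follows its brightest genes, and fewer markers passed one by one. Between the day 6 groups 13.7% of all genes were higher in the Dox-labelled arrays and 12.2% lower. There 1 of the 8 endoderm and liver markers was higher, near that share, and 3 of the 8 crest markers were higher and 1 lower. Of the 7 trophoblast and amnion markers 3 were higher, and of the 8 mesoderm and heart markers 3. Of the 7 neural markers 2 were higher and 1 lower, and of the 7 endothelium and blood markers 1 was higher. Of the pluripotency markers 1 was higher and 5 were lower. The part of cell composition in the receptor differences was not tested. The ratio of 3′ to 5′ signal of ACTB, a sign of RNA quality, was 3.24 ± 0.139 at d0, 3.86 ± 0.0111 in d0 with Dox, 2.59 ± 0.290 in the RA-labelled group and 2.33 ± 0.0580 in the Dox-labelled one, lowest in the day 6 groups. That of GAPDH was 1.53 ± 0.0577, 1.62 ± 0.0554, 1.35 ± 0.0817 and 1.46 ± 0.0230 in the same order, and so was higher in the Dox-labelled than in the RA-labelled group, where that of ACTB was lower. The part of RNA quality was not tested.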

How the data were processed

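Total RNA came from H9 cells at passages 28 to 35, per the labels. The authors deposited one linear intensity for each probe set, and the steps of correction, summary and scaling are not stated in the labels or files. Their mean, after trimming 2% at each end, was 500 on every array. Of 54675 probe sets, 41097 had a single gene symbol, 1801 several, and 11777 were not listed. Symbols were updated by gene ID for 41043 through RefSeq's table (GRCh38.p14). The probe set of highest mean log2 intensity stood for a gene, and averaging all its probe sets was an alternative. Tests used limma 3.58.1 in R 4.3.3 (eBayes after lmFit) on log2(intensity + 16), which understates changes of dim genes, with 8 residual degrees of freedom and Benjamini-Hochberg adjustment over 19775 genes, or over all probe sets where single probe sets are named as called. Groups and replicate numbers came from the sample titles. Values are means ± SD and log2 fold changes ± SE (n = 3), and folds, like log2 fold changes, are of intensity + 16. The number of arrays limits the precision. Receptors called in any comparison are described by array, and of each target or marker list up to 2 largest rises and falls. Receptors and lists were chosen with earlier results of these data known. Alternatives were pseudocounts of 1 and 64, quantile normalization, median centring, a trended robust variance, only genes above the median of the means, the arrays of a comparison alone, a replicate block and leaving out each array, with exchanged day 6 labels added after seeing the data. The procedure was tested on simulated data. Scan dates were not used here, so array batches were not tested.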

Additional observations from a re-analysis of the deposited data

Results flagged for a closer look

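The change to day 6 differed between the labelled series for 8 receptors by the test of the difference itself, on the log2 scale and as Dox-labelled less RA-labelled. It was 2.88 for NR2F1, 2.31 for RARB, 1.99 for PPARG, 1.60 for RARA and 0.66 for NR3C1. The difference was -0.70 for NR3C2, -0.57 for NR2C1 and -0.45 for RORA. With the day 6 labels exchanged it was 3.42 for NR2F1, 3.85 for RARB, 1.68 for PPARG, -0.34 for NR3C2 and -0.78 for RORA, all of which passed, but 0.42 for RARA, -0.17 for NR2C1 and -0.083 for NR3C1, which did not, while ESRRG passed at 2.18. With PPARG, the undifferentiated arrays were near the signal floor, and its size was 2.57 with a pseudocount of 1, where it did not pass (adjusted p = 0.167).

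NR1D1, the receptor REV-ERB alpha, overlaps THRA on the opposite strand, and 3 probe sets assigned to both were not used for either gene. One of them stood at 230.35 ± 42.0 at d0, 238 ± 66.1 in d0 with Dox, 622 ± 92.9 in the RA-labelled group and 497 ± 49.1 in the Dox-labelled one. Its log2 fold change was 1.38 from d0 to the RA-labelled arrays (adjusted p = 0.000338 in limma over all probe sets) and 1.04 from d0 with Dox to the Dox-labelled arrays (adjusted p = 0.00251). A second shared probe set was higher by 1.30 in the RA-labelled arrays than at d0 (adjusted p = 0.0257). Which of the genes gave these signals cannot be told apart.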

How the results depend on the processing

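Of the 49 receptor calls in the 4 comparisons, 29 passed under every alternative run, 20 did not under at least 1, and 38 passed without any 1 of the 12 arrays. Averaging the probe sets of each gene ended 15 calls whose sign was kept. It also ended 2 whose sign turned, ESRRA between the day 6 groups (0.058) and NR2C1 from d0 to the RA-labelled arrays (-0.079). Averaging added 1 call with Dox at d0, 1 between the day 6 groups, 0 in the first change to day 6 and 5 in the second. Exchanging the day 6 labels, chosen after seeing the data, gave 9 calls instead of 8 for the difference between the changes to day 6, with 5 in common, and turned the sign of NR3C1 (-0.083). The 6 arrays alone ended 9. With Dox at d0, 3 receptors passed, 5 with a trended robust variance and 1 with the 6 arrays alone. Above the median mean, which 14 receptors reach, 9 passed in each change to day 6 instead of 19 and 15, since fewer were tested. Leaving out 1 array gave 1 to 4 calls with Dox at d0 (1 without d0 with Dox replicate 2 or 3), 8 to 12 between the day 6 groups, 16 to 19 and 13 to 16 for the changes to day 6, and 7 to 10 for the difference between them. With the replicate number as a block the counts were 2, 8, 19, 16 and 7 against 3, 12, 19, 15 and 8. Replicate numbers did not pair the arrays (correlations of deviations -0.00876 to 0.0362 over 18 pairs). Over all genes, 2552 passed with Dox at d0, 1722 over the mean of probe sets and 1522 with the 6 arrays alone. With 4 spellings of the half-site, chosen after seeing the data, 1 member window held a direct repeat spaced by 5, and 0 with AGGTCA alone. Signal limits the dim receptors: 8 of 36 had a group mean under 16, where the size of a change depends on the pseudocount.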
